A study of Mus musculus with 9 samples.

Results

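Homozygous mice, which carried a deletion of TAAR enhancer 1 on both copies of chromosome 10, were compared with heterozygous mice, which kept 1 intact copy, across all genes of the main olfactory epithelium (MOE). The comparison used 6 of the 9 RNA-seq libraries of the series, 3 homozygous and 3 heterozygous, and the remaining 3 came from wild type mice of the same line and entered only the estimate of the spread and the levels given for reference. The labels describe all mice as C57BL/6 at postnatal day 14, while the study's reporting summary names a mixed strain background and older mice for this line, and which of these holds was not resolved. The mice were of a single line made by CRISPR-Cas9, so all carriers share 1 deletion, of a noncoding element between Taar1 and Taar2. Each library was polyA-selected RNA of the whole MOE of 1 mouse, so it holds neurons, supporting cells, glands, and the connective tissue and bone beneath them. In such bulk tissue, fewer cells of a type and less RNA per cell cannot be told apart.

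Trace amine-associated receptors (TAARs) detect volatile amines. Each TAAR neuron uses a single Taar gene out of a compact cluster, and enhancers within the cluster act on the genes on the same chromosome, so a heterozygous mouse still has an intact cluster from which to express them. The epithelium around these neurons contains the far more numerous neurons with odorant receptors (ORs), sustentacular cells that support neurons and metabolise odorants, Bowman's glands that secrete mucus, and basal stem cells. Under it lies a stroma of fibroblasts, vessels, ensheathing glia and turbinate bone. The question was what the loss of the remaining enhancer copy does, both to the receptors and to the genes of all these other cells.

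Libraries held between 24583906 and 32631951 reads in genes, so 3 reads of a gene were worth 0.0916 to 0.122 CPM (counts scaled to a common library size by TMM). The reads carry no molecular identifiers, so intervals and limits given here cover counting error only. Omp, the olfactory marker protein of mature neurons, was at 3045 to 3550 CPM in the 9 libraries, and all were male by their reads (at most 51 reads of Xist and at least 701 of each Y-linked gene examined). The vomeronasal organ is a pheromone-sensing organ near the MOE, and the reads of its receptor genes varied. Their sum was 14.6 to 17.3 CPM in 6 libraries, and 67.9 CPM in the first heterozygous, 120 CPM in the second homozygous and 69.5 CPM in the third homozygous replicate. These 3 libraries stand apart, so the numbers of genes called and the counts for the gene lists are also given without them. Trpc2, the other vomeronasal marker examined, had 0 reads in all 9 libraries, and the source of the receptor reads was not tested. The labels do not say from how many litters the mice came, and p-values measure only the spread between these libraries.

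Few genes besides the Taar receptors passed the test between homozygous and heterozygous mice. Of 20213 genes tested, 23 were called by edgeR at an adjusted p-value under 0.05, which is 0.114% of the genes. Of these, 20 were lower in homozygous mice (0.0989% of genes tested) and 3 were higher (0.0148%). The Taar family held 7 of the 23, all lower, and the other 16 comprised 13 lower and 3 higher genes. A change of more than 1.5-fold was found for all 7 Taar genes and for 3 of the other 16, namely 5430419D17Rik, Zbtb16 and Cebpb. Over all genes the median log2 fold change was -0.0017, the middle 50% lay between -0.10 and 0.085, and 10213 genes had a negative and 10000 a positive value.

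The number of calls outside the Taar family depended on single libraries. Without heterozygous replicate 3 the total rose to 195. It was 7 without heterozygous replicate 1, 9 without heterozygous replicate 2, 9 without homozygous replicate 2 and 14 without homozygous replicate 3, and of the wild type libraries, replicate 1 and replicate 2 brought it to 9 and 11 when left out. When the 3 libraries with high vomeronasal reads were left out together, 7 genes were called, 4 of them Taar genes, and none of the 16 other genes was among them. That fit sets 1 homozygous library against 2 heterozygous ones. All 23 genes kept their direction in each of the 19 other settings tried. None of these genes had overlapping homozygous and heterozygous libraries, so leaving libraries out could hardly turn a sign. Genes with an unadjusted p-value under 0.05 from edgeR, in either direction, numbered 2106 as reported and 1554 to 2859 when 1 library was left out. Counts for the gene lists in those fits were not scaled for this.

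**Figure D1:**
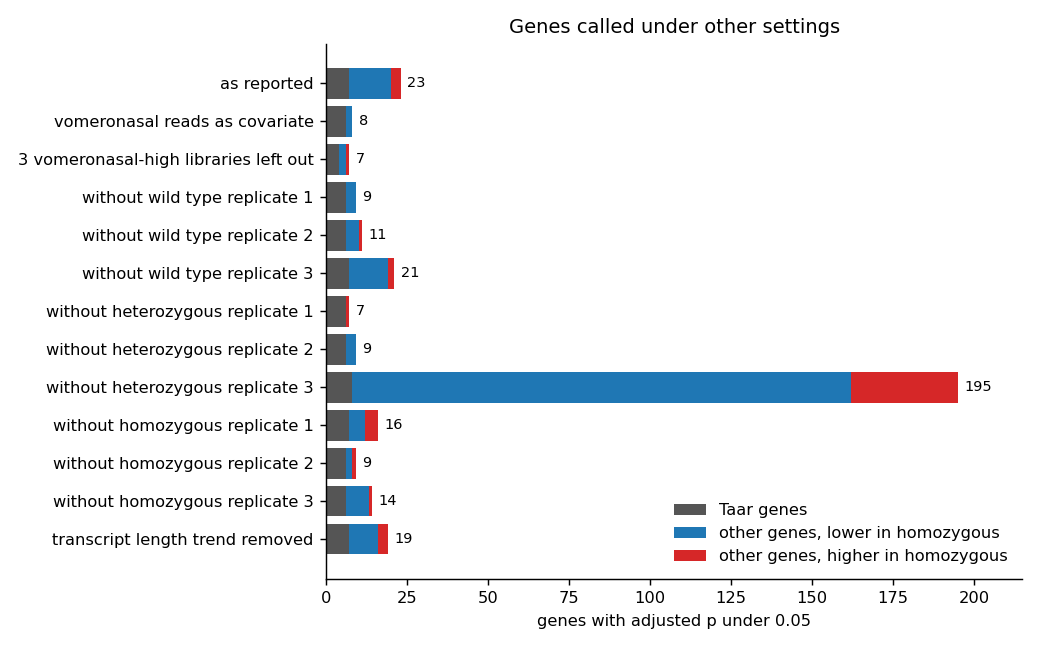
Number of genes with an edgeR adjusted p-value under 0.05 between homozygous and heterozygous mice (x axis) as reported and under other settings (y axis), with bars split into Taar genes and other genes lower or higher in homozygous mice. The total was 23 as reported, 7 without heterozygous replicate 1 and 195 without heterozygous replicate 3, while Taar genes made up 4 to 8 of it in the settings drawn.

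The Taar genes closest to the deleted element lost nearly all their reads. Taar2 (chromosome 10, 23938572 to 23941583, GRCm38) had 65, 51 and 47 reads in the heterozygous libraries and 1, 1 and 0 in the homozygous ones. Scaled for depth, the homozygous mice had 1.31% of the heterozygous reads (exact 95% interval 0.157 to 4.8%; edgeR adjusted p = 3.31e-05). Taar3 had 29, 33 and 29 reads in heterozygous mice and 0 in each homozygous mouse, which makes it at least 9.49-fold lower against a limit of 3 reads per library (adjusted p = 6.38e-04). Taar4 went from 43, 34 and 41 reads to 2, 0 and 1, or 2.71% of the heterozygous level (interval 0.551 to 8.12%; adjusted p = 7.11e-05). Taar5, whose receptor binds trimethylamine, had 39, 55 and 41 reads in heterozygous mice and 0 in all homozygous mice, at least 14.1-fold lower (adjusted p = 7.11e-05). Summed over these 4 genes, expression was 6.05 ± 0.628 CPM (SD, n = 3) in heterozygous and 0.0617 ± 0.0381 CPM (SD, n = 3) in homozygous mice, a change of -99%.

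Further along the cluster the loss was partial. Taar6 had 196, 167 and 175 reads in heterozygous and 132, 75 and 81 in homozygous mice, no overlap between the groups, but it was not called (log2 fold change -0.82, SE 0.16, adjusted p = 0.0760). Taar7b fell from 93, 108 and 90 reads to 43, 27 and 23 (log2 fold change -1.56, SE 0.21, adjusted p = 6.13e-03), and Taar7a from 103, 103 and 109 reads to 60, 42 and 51 (log2 fold change -0.95, SE 0.15, adjusted p = 0.0292). Neither Taar7d, at 64.4% of the heterozygous level (interval 54.5 to 75.9%), nor Taar7f, at 90.7% (interval 77.5 to 106%), was called. The groups overlapped for Taar7f but not for Taar7d.

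Taar7e went the other way. It had 151, 155 and 164 reads in heterozygous and 253, 188 and 199 in homozygous mice, every homozygous library above every heterozygous one, yet the difference was not called over all genes (log2 fold change 0.53, SE 0.12, adjusted p = 0.115). Its wild type mean of 4.73 CPM was below both the heterozygous mean of 5.60 CPM and the homozygous mean of 8.08 CPM. At the far end, Taar9 (chromosome 10, 24108488 to 24109534) fell from 86, 59 and 56 reads to 3, 5 and 5, which is 6.9% of the heterozygous level (interval 3.61 to 12.1%; log2 fold change -3.82, SE 0.32, adjusted p = 4.30e-05). The Taar8 genes had few reads. Taar8a had 4, 6 and 5 reads in heterozygous and 0 in homozygous mice, Taar8c had 11, 8 and 10 against 0, 0 and 2, and Taar8b had 21, 4 and 23 against 10, 5 and 7. None of the Taar8 genes was called, with adjusted p-values from 0.188 to 0.530. Genes within the Taar7 and Taar8 subfamilies are near-identical, so the counting may have split or dropped their reads and single values there are uncertain. Taar1, which is not an olfactory receptor, had 1 read in the 9 libraries.

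**Figure D2:**
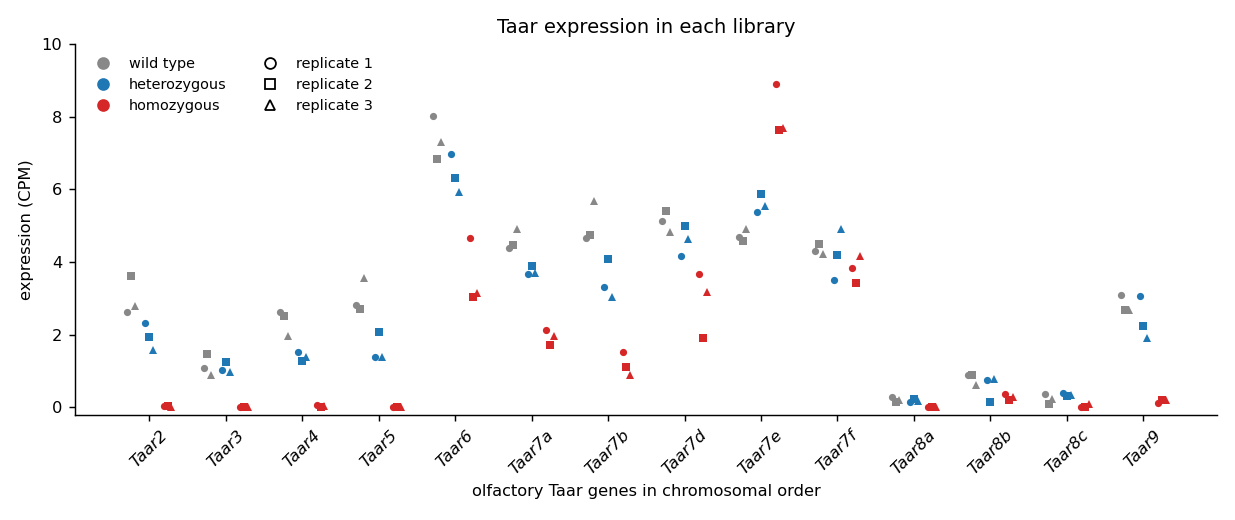
Expression in CPM (y axis) of the 14 olfactory Taar genes in chromosomal order (x axis) in each of the 9 libraries, with colour for genotype and marker shape for replicate number. Homozygous libraries lie at or near 0 for Taar2 to Taar5, Taar8a, Taar8c and Taar9, below the heterozygous libraries for Taar6, Taar7a, Taar7b and Taar7d, and above them for Taar7e.

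Summed over the family, the 14 olfactory Taar genes were at 37.6, 38.8 and 36.3 CPM in heterozygous and 25.3, 19.3 and 21.6 CPM in homozygous mice. The means were 37.6 ± 1.27 and 22.0 ± 3.02 CPM (SD, n = 3 each), a change of -41.3%, and 44.8 ± 0.151 CPM in wild type mice. The groups did not overlap (two-sided exact permutation test, p = 0.1, the smallest value that 3 against 3 allows). The 8 Taar7 and Taar8 genes held most of what was left, at 22.7 ± 1.25 CPM in heterozygous and 18.2 ± 2.21 CPM in homozygous mice, a change of -19.8%, against -74.1% for the other 6 genes. Of the 14 genes, 11 had every homozygous library below every heterozygous one and 1 had every homozygous library above, compared with 7.67% and 6.41% of all genes tested. The change of the sum was -32.7% without the 3 libraries with high vomeronasal reads.

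The genes on either side of the cluster were not called. Slc18b1, a vesicular polyamine transporter gene, was at 39.9, 36.8 and 37.3 CPM in heterozygous and 38.5, 39.99 and 41.3 CPM in homozygous mice (log2 fold change 0.07, SE 0.059, adjusted p = 0.736). Stx7, which encodes an endosomal syntaxin, had a log2 fold change of 0.09 (SE 0.058, adjusted p = 0.622), and the groups overlapped. Moxd1 was at 32.9 ± 1.597 CPM in heterozygous and 32.8 ± 1.43 CPM in homozygous mice (SD, n = 3 each), and the sign of its change depended on the libraries included.

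Among the OR genes, 1070 were tested and none was called. By unadjusted p-values under 0.05 from edgeR, 13 were lower and 43 higher in homozygous mice, which is 1.21% and 4.02% of the family, while 6.2% of all genes tested were lower and 4.22% higher on this measure. The 13 lower genes became 7 without heterozygous replicate 2, and without the 3 libraries with high vomeronasal reads 18 were lower and 35 higher. The median log2 fold change of the family was 0.054, and it ranged from 0.018 to 0.096 over the 19 other settings. Over the same settings 4 to 19 OR genes were lower and 20 to 48 higher at an unadjusted p-value under 0.05. The 3 OR genes with the smallest p-values were Olfr1302, Olfr1277 and Olfr583, with adjusted p-values of 0.192, 0.237 and 0.238. Olfr1302 was at 1.03, 0.983 and 1.45 CPM in heterozygous and 2.22, 2.24 and 1.82 CPM in homozygous mice.

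The 16 genes outside the Taar family that passed the test mostly changed little. In each of the 16 no homozygous library overlapped a heterozygous one, and in each the wild type mean lay between the other means. Selecting genes on the homozygous to heterozygous difference favours both. Of all genes tested, 7.67% had every homozygous library below every heterozygous one and 6.41% had every homozygous library above. The wild type mean lay between for 39% of all genes tested and for 79.3% of genes with an unadjusted p-value under 0.05. The wild type libraries overlapped the homozygous ones in 2 of the 16 genes and the heterozygous ones in 8.

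The largest change was in Zbtb16 (chromosome 9, 48651797 to 48836225), a zinc finger transcription factor gene that glucocorticoids induce in many tissues. It was at 17.7, 14.03 and 13.1 CPM in heterozygous and 6.52, 2.15 and 3.37 CPM in homozygous mice (log2 fold change -1.88, SE 0.31, adjusted p = 0.0337). The wild type libraries, at 8.75, 15.7 and 7.19 CPM, spanned much of the range between them. 5430419D17Rik (chromosome 7, 131174402 to 131306452), named Cdcp3 in RefSeq, fell from 177.5, 175.4 and 143.6 CPM to 95.9, 66.5 and 106 CPM (log2 fold change -0.89, SE 0.14, adjusted p = 0.0201). In the other direction, Cebpb (chromosome 2, 167688915 to 167690432), a leucine zipper transcription factor gene of inflammatory and metabolic responses, rose from 18.0, 15.0 and 16.2 CPM to 21.2, 28.6 and 28.0 CPM (log2 fold change 0.66, SE 0.12, adjusted p = 0.0472). Its highest wild type library, at 21.2 CPM, was level with homozygous replicate 1.

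Among the other called genes, Cd109, a membrane-anchored protein that binds transforming growth factor beta, fell from 42.5 ± 0.550 to 31.3 ± 2.04 CPM (SD, n = 3 each; adjusted p = 9.71e-03). Sparcl1, a secreted matrix-associated glycoprotein, fell from 131.9 ± 4.58 to 107.4 ± 4.38 CPM (adjusted p = 0.0219). Col5a2, a chain of the fibril-forming collagen V, was at 466.7, 436.2 and 439.1 CPM in heterozygous and 390.2, 369.7 and 367.2 CPM in homozygous mice (log2 fold change -0.25, SE 0.045, adjusted p = 0.0459). Utrn, the dystrophin relative that ties the actin cytoskeleton to the matrix receptor, had a log2 fold change of -0.30, and Fndc3b, a protein with fibronectin type III domains, one of -0.40. These 5 genes were each lower in all the homozygous libraries than in any heterozygous one, an order that their selection on this difference favours.

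Ugt2a1, which encodes an olfactory glucuronosyltransferase that conjugates odorants, was at 639, 686 and 656 CPM in heterozygous and 539.5, 525 and 559.5 CPM in homozygous mice (log2 fold change -0.29, SE 0.049, adjusted p = 0.0383). Hpgd, the dehydrogenase that inactivates prostaglandins, fell from 97.3 ± 3.36 to 80.7 ± 3.57 CPM, and Sgms2, a sphingomyelin synthase, from 114.2 ± 6.83 to 92.7 ± 1.39 CPM (SD, n = 3 each; adjusted p = 0.0383 for both). The log2 fold change was -0.27 for Dennd4c, an activator of Rab GTPases, and -0.36 for Cped1. The other 2 genes that rose were Mllt3, a chromatin reader of the transcription elongation machinery (log2 fold change 0.38, adjusted p = 0.0383), and Atp10d, a phospholipid-flipping ATPase (log2 fold change 0.31, adjusted p = 0.0473). For both, wild type levels were nearer to the homozygous than to the heterozygous mean, at 111 and 139 CPM.

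**Figure D3:**
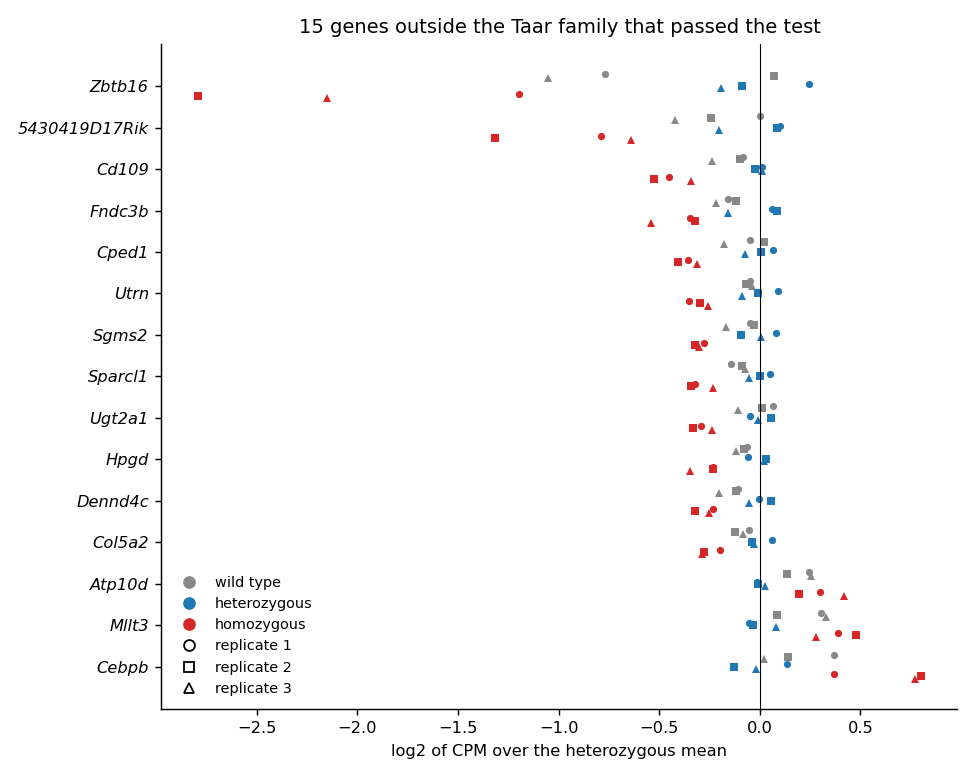
For 15 of the 16 genes outside the Taar family that passed the test (y axis), the log2 ratio of the CPM in each library to the heterozygous mean (x axis), with colour for genotype and marker shape for replicate number. Homozygous libraries of 12 genes lie to the left of all heterozygous libraries and those of Atp10d, Mllt3 and Cebpb to the right, and the wild type mean lies between in all 15.

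Of the 10 genes just outside the threshold, 1 was Taar6 and 7 others had negative values. Cd200, an immunoglobulin-family surface protein that dampens myeloid cells, was at 50.5 ± 1.03 CPM in heterozygous and 40.2 ± 1.87 CPM in homozygous mice (SD, n = 3 each; adjusted p = 0.0508). Ankfn1 had the largest difference among the 10 genes nearest the threshold, at 1.92, 1.25 and 1.15 CPM against 0.423, 0.244 and 0.542 CPM (log2 fold change -1.82, adjusted p = 0.0540). Cep350 (centrosome), Syne1 (nuclear envelope), Mgat4a (N-glycan branching), Slc10a5 and Lama2 (laminin alpha 2) had log2 fold changes of -0.24, -0.37, -0.32, -0.58 and -0.45. Jund, an AP-1 transcription factor gene, and Efna5, an axon guidance ligand gene, had positive values, of 0.40 and 0.26.

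Most stromal genes had slightly lower values in homozygous mice, and 1 was called by edgeR. Of 94 genes of fibroblasts and matrix, basement membrane, bone and cartilage, osteoclasts, endothelium, pericytes and smooth muscle, and glia, 84 were lower in homozygous mice by sign, with a median log2 fold change of -0.15 against -0.0017 over all genes tested. An unadjusted p-value under 0.05 from edgeR was found for 39 of the 94, all lower in homozygous mice, where 6.2% of all genes tested were, and after adjustment 1 of them, Col5a2, was called. DESeq2 with default settings called 10 of the 94, and 130 of all 20213 genes tested. In 30 of the 94 genes every homozygous library was below every heterozygous one, which held for 7.67% of all genes tested. The wild type mean lay between the other groups for 63 of the 94, and for 39% of all genes tested. Levels summed over the 94 genes were 29120, 25490 and 27220 CPM in heterozygous and 25280, 23770 and 25320 CPM in homozygous mice. They were 27350, 24910 and 25770 CPM in wild type mice. Abundant matrix genes weigh heavily in this sum, with Col1a2, Col1a1 and Sparc at 6809, 5880 and 2739 CPM in heterozygous replicate 1. The heterozygous and homozygous sums did not overlap, but the wild type sums overlapped both. The lowest heterozygous and the highest homozygous sum lay close together, and the highest library was heterozygous replicate 1. Without that library 22 genes passed an unadjusted p-value of 0.05 and the median was -0.094. In that fit 1554 of all 20213 genes tested passed it in either direction, against 2106 as reported. Without the 3 libraries with high vomeronasal reads the count was 10 lower and 2 higher, with a median of -0.093.

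Within the stroma, the fibroblast and matrix list had 14 of 23 genes lower at an unadjusted p-value under 0.05 and a median log2 fold change of -0.15. That count was 7 without heterozygous replicate 1, 9 without homozygous replicate 2 and 1 without the 3 libraries with high vomeronasal reads. Col14a1, a fibril-associated collagen, was at 56.9, 54.3 and 48.7 CPM in heterozygous and 43.9, 41.1 and 40.4 CPM in homozygous mice (log2 fold change -0.35, SE 0.077, adjusted p = 0.115). Postn, a matricellular protein of connective tissue and periosteum, was at 432, 410 and 387 CPM against 367, 358 and 335 CPM (log2 fold change -0.21, adjusted p = 0.166). The groups did not overlap for either gene. Col1a1, the abundant collagen I chain of bone and dermis, was at 5880, 4706 and 5079 CPM in heterozygous and 4961, 4276 and 4837 CPM in homozygous mice, and here they did overlap (log2 fold change -0.15, adjusted p = 0.506).

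The basement membrane list had 8 of 15 genes lower on the same measure, with a median of -0.13. Lama2 had the largest difference, at 32.9, 29.6 and 31.1 CPM in heterozygous and 22.4, 19.95 and 26.3 CPM in homozygous mice (log2 fold change -0.45, SE 0.088, adjusted p = 0.0822). Col4a1, a chain of the network-forming collagen IV, was at 279, 260 and 242 CPM against 217.1, 216.9 and 224 CPM (log2 fold change -0.25, adjusted p = 0.110). The list's count was 4 without heterozygous replicate 1 and 4 without the 3 libraries with high vomeronasal reads.

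Bone and cartilage had 5 of 15 genes lower at an unadjusted p-value under 0.05 (median -0.16), among them Col11a1, a cartilage collagen at 361, 336 and 364 CPM against 309.5, 291 and 291 CPM (log2 fold change -0.25, adjusted p = 0.108). The count was 8 without heterozygous replicate 2. Endothelium had 5 of 12 (median -0.16), which became 2 without heterozygous replicate 1 and 3 without homozygous replicate 1 or homozygous replicate 2. Its junction gene Cdh5 was at 25.9, 24.1 and 23.1 CPM in heterozygous and 20.5, 21.5 and 21.1 CPM in homozygous mice (log2 fold change -0.21, adjusted p = 0.303). Pericytes and smooth muscle had 4 of 10 (median -0.11), and 2 without heterozygous replicate 1 or homozygous replicate 2. Osteoclasts had 2 of 7 (median -0.15) and ensheathing and Schwann glia 1 of 12 (median -0.13). The osteoclast count was 4 without heterozygous replicate 2 and 1 without heterozygous replicate 1 or 3, homozygous replicate 1 or 2, or wild type replicate 3. The glial count was 3 without homozygous replicate 3 and 2 without homozygous replicate 2 or wild type replicate 3. No gene of the 7 stromal lists had an unadjusted p-value under 0.05 in the upward direction. The median of each of the 7 lists stayed negative in all 19 other settings, but its size depended on single libraries. It was -0.050 for bone and cartilage without heterozygous replicate 3 and -0.087 without homozygous replicate 2. Without heterozygous replicate 1 it was -0.043 for osteoclasts, -0.056 for glia and -0.063 for pericytes, and without homozygous replicate 2 it was -0.045 for pericytes. The median of osteoclasts was -0.25 without heterozygous replicate 2, and that of glia was -0.064 without homozygous replicate 1. Without the 3 libraries with high vomeronasal reads, bone and cartilage had 2 genes lower and 2 higher (median -0.042), endothelium, osteoclasts and glia had 1 lower each, and pericytes had 0.

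**Figure D4:**
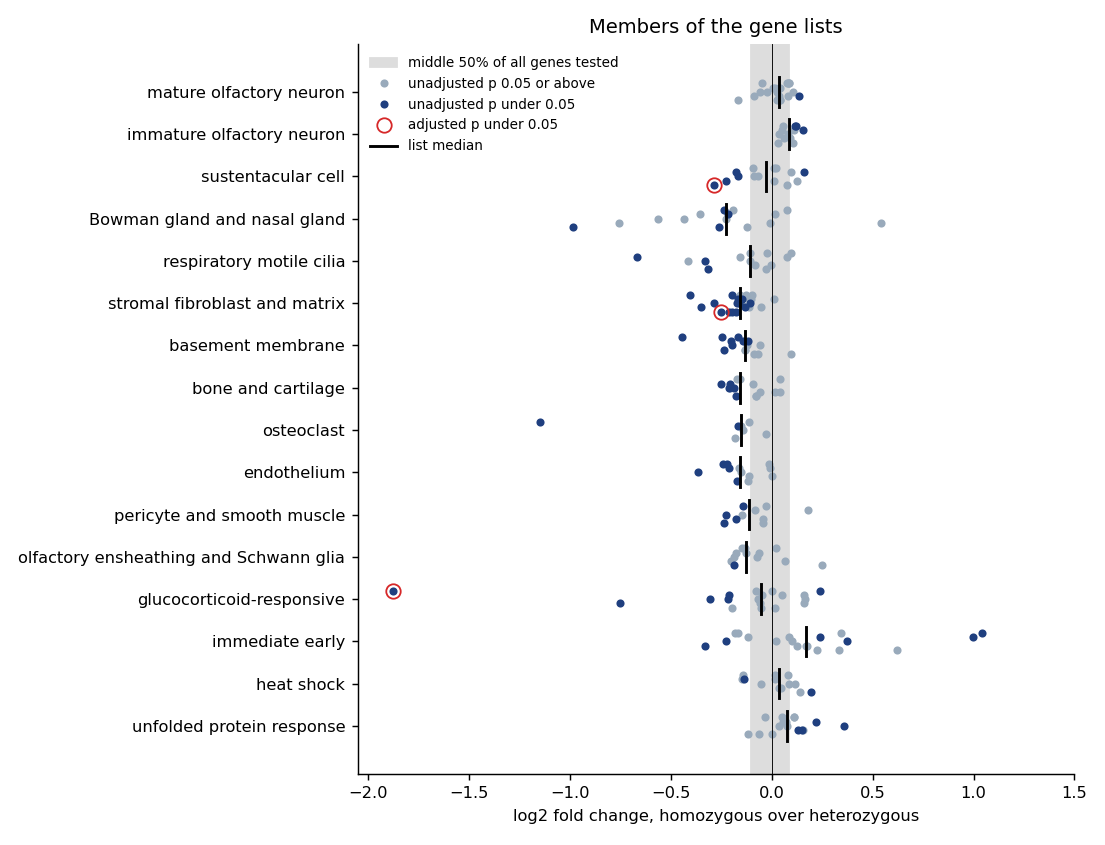
Log2 fold change of homozygous over heterozygous mice (x axis) for the members of 16 gene lists (y axis, 1 point per gene), with a black bar for each list's median and grey for the middle 50% of all genes tested. The medians of the stromal lists, from fibroblasts to glia, lie between -0.16 and -0.11, and red rings mark Ugt2a1, Col5a2 and Zbtb16, the only listed genes outside the receptors with an adjusted p-value under 0.05.

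A measure of transcript length differed between the homozygous and heterozygous libraries. In each library, the median log2 deviation of genes with long transcripts minus that of genes with short ones was 0.062, 0.075 and -0.012 in heterozygous and -0.040, -0.055 and -0.060 in homozygous mice. It was 0.037, 0.010 and -0.023 in wild type mice. With genes ranked by transcript length into 5 equal bins, the median log2 fold change went from 0.0443 for the shortest to -0.0445 for the longest genes. The longest transcript had a median length of 5801 bases among the 13 genes called lower, 6052 among the 3 called higher and 4444 among the 94 stromal genes, against 3053 over all genes tested with a length. With the length trend removed from each library, which was tried after seeing the data, edgeR called 19 genes, 10 of the 16 other genes among them, and 36 of the 94 stromal genes were lower at an unadjusted p-value under 0.05, with a median of -0.12. Cebpb and Col5a2 were among the 6 that lost the call. The part of transcript length in the remaining calls was not tested.

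**Figure D5:**
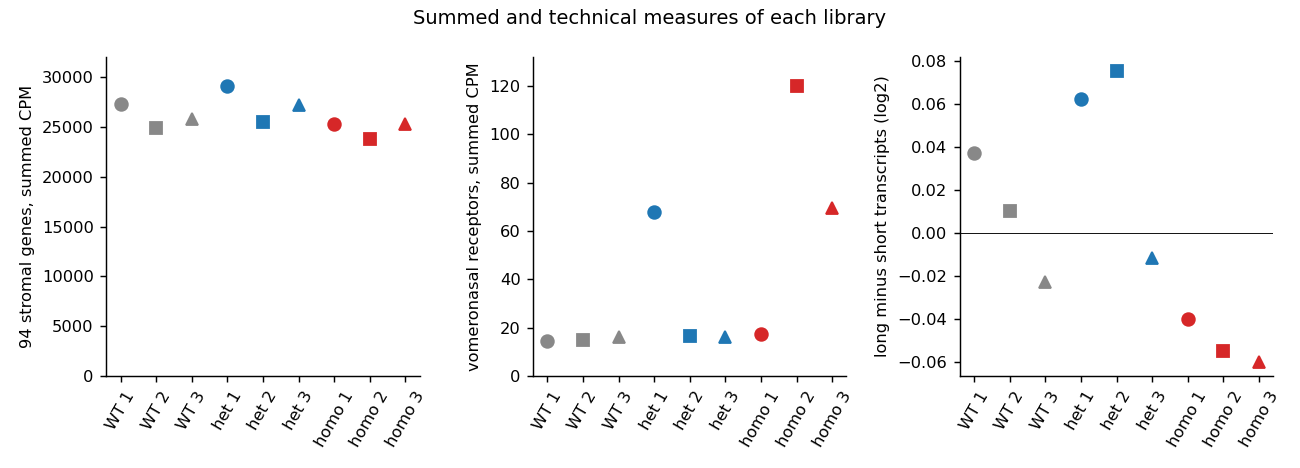
For each of the 9 libraries (x axis), the summed CPM of the 94 stromal genes, the summed CPM of vomeronasal receptor genes, and the median log2 deviation of long minus short transcripts (y axes), with colour for genotype. Heterozygous replicate 1 has the highest stromal sum at 29120 CPM, heterozygous replicate 1 and homozygous replicates 2 and 3 have 67.9 to 120 CPM of vomeronasal receptors, and the 3 homozygous libraries have the lowest values of long minus short transcripts.

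Support cell genes of the epithelium had values on both sides of 0. The sustentacular list had 7 of 14 genes with a negative value, a median of -0.029, and summed levels of 11910 to 13070 CPM in heterozygous and 11750 to 12480 CPM in homozygous mice. On unadjusted p-values under 0.05 from edgeR, 4 genes of the list were lower and 1 higher, where 6.2% of all genes tested were lower and 4.22% higher. DESeq2 with default settings called 2 of the 14, and 130 of all 20213 genes tested. Beside Ugt2a1, which was called by edgeR, 3 odorant-metabolising cytochrome P450 genes were lower at an unadjusted p-value under 0.05. These were Cyp2f2, at 1001, 1134 and 941.5 CPM in heterozygous and 925, 846 and 858 CPM in homozygous mice (log2 fold change -0.23, adjusted p = 0.177), Cyp2a5 (-0.17, adjusted p = 0.282) and Cyp1a2 (-0.17, adjusted p = 0.369). Hes1, a Notch target, had a positive value of 0.16 (adjusted p = 0.379), and Cbr2, a carbonyl reductase abundant in these cells, one of 0.10 (adjusted p = 0.501). Hes1 was the 1 gene higher at an unadjusted p-value under 0.05, and this count was 4 without homozygous replicate 2, 2 without heterozygous replicate 1 or wild type replicate 3, and 0 without heterozygous replicate 3 or homozygous replicate 3. In the fit without the 3 libraries with high vomeronasal reads 2 genes were lower and 2 higher. The sign of the list's median was positive in 1 of the 19 other settings, with vomeronasal reads as a covariate.

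Gland genes had a lower median, of -0.23, with wide spread between mice. Of 15 genes of Bowman's and other nasal glands, 4 were lower at an unadjusted p-value under 0.05 and none higher. Over all genes tested 6.2% were lower and 4.22% higher on this measure. EdgeR called none of the 15, while DESeq2 with default settings called 1, and 130 of all 20213 genes tested. Bpifb3, a secreted protein of the lipid-binding BPI fold family, was at 1221, 1102 and 1140 CPM in heterozygous and 974, 852 and 1069 CPM in homozygous mice (log2 fold change -0.26, adjusted p = 0.188). Dmbt1, a mucosal scavenger receptor gene, showed how far 1 library could carry such a value, at 369.6, 99.0 and 57.3 CPM in heterozygous and 92.2, 100.7 and 73.0 CPM in homozygous mice (log2 fold change -0.98, adjusted p = 0.446). The count of 4 became 7 without heterozygous replicate 3. Without heterozygous replicate 1 the median of the list was -0.025, and without the 3 libraries with high vomeronasal reads -0.016, with 4 genes lower and 2 higher. Genes of motile respiratory cilia had 3 of 13 lower (median -0.10). These were the axonemal genes Dnah5, Dnah9 and Hydin, with log2 fold changes of -0.67, -0.33 and -0.31, none of them called. The count was 7 without heterozygous replicate 3, 2 without heterozygous replicate 1 or homozygous replicate 1, and 1 without heterozygous replicate 2 or without the 3 libraries with high vomeronasal reads.

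The mature neuron list of 21 genes had a median of 0.036 and no gene lower at an unadjusted p-value under 0.05. Omp was at 3114, 3045 and 3432 CPM in heterozygous and 3410, 3196 and 3550 CPM in homozygous mice (log2 fold change 0.08, adjusted p = 0.552). Rtp1, the chaperone that brings receptors to the cell surface, was the 1 gene with a higher value on that measure, at 571, 597 and 619.5 CPM against 643, 658.5 and 662 CPM (log2 fold change 0.14, SE 0.043, adjusted p = 0.298). The count of 1 became 6 without heterozygous replicate 3 and 3 without homozygous replicate 2. All 12 genes of immature neurons had a positive value, from 0.032 to 0.15, with a median of 0.087, against a 75th percentile of 0.085 over all genes tested. Gap43, Tubb3 and Marcksl1, genes of growing neurites, had an unadjusted p-value under 0.05 and none was called. Over all genes tested 4.22% were higher and 6.2% lower on this measure. Without heterozygous replicate 3 the count of 3 became 8, and it was 1 without heterozygous replicate 1, heterozygous replicate 2 or homozygous replicate 3, and 2 without homozygous replicate 1. Leaving out the 3 libraries with high vomeronasal reads left 0 mature and 1 immature neuron genes higher.

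Stress genes were looked at in several lists, and edgeR called 1 member, Zbtb16. DESeq2 with default settings called 2 glucocorticoid-responsive genes, 1 immediate early gene, 1 gene of the unfolded protein response and 1 circadian clock gene. In the same fit 130 of all 20213 genes tested were called. Glucocorticoid-responsive genes had 5 of 18 lower and 1 higher at an unadjusted p-value under 0.05, with a median of -0.054, where 6.2% of all genes tested were lower and 4.22% higher. Beside Zbtb16 these were Hif3a, at 10.3, 11.3 and 10.1 CPM in heterozygous and 8.21, 3.82 and 6.69 CPM in homozygous mice (log2 fold change -0.75, SE 0.19, adjusted p = 0.166), Fkbp5, a cochaperone of the receptor (-0.21, adjusted p = 0.192), Tsc22d3, an anti-inflammatory target (-0.21, adjusted p = 0.295), and Angptl4 (-0.31, adjusted p = 0.468). Other genes on the list that the hormone is known to induce had values near 0 or above, among them Per1 at 0.16 and Ddit4 at 0.0034. Dusp1 was the 1 higher gene, at 0.24. Without heterozygous replicate 1 the median turned to 0.033, with 4 genes lower and 4 higher, and without homozygous replicate 1 it was 4e-04, with 4 lower and 2 higher. The 1 higher gene became 2 without wild type replicate 2 or 3 and 0 without heterozygous replicate 2 or homozygous replicate 2. There were 3 lower and 0 higher genes without the 3 libraries with high vomeronasal reads.

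Immediate early genes, which cells switch on within minutes of activation or handling, had a median of 0.17, with 14 of 19 positive, 4 higher and 2 lower at an unadjusted p-value under 0.05. Over all genes tested 4.22% were higher and 6.2% lower on this measure. The highest values of Atf3, Fosb and Nr4a1 came from homozygous replicate 2. Atf3 was at 3.35, 3.55 and 3.38 CPM in heterozygous and 3.49, 13.7 and 4.22 CPM in homozygous mice (log2 fold change 1.04, SE 0.37, adjusted p = 0.341). Fosb was at 2.71, 1.096 and 1.32 CPM against 1.87, 6.14 and 2.36 CPM (log2 fold change 1.00, SE 0.39, adjusted p = 0.389), and Nr4a1 at 46.6, 43.7 and 42.7 CPM against 47.1, 74.4 and 50.8 CPM (log2 fold change 0.37, adjusted p = 0.331). Without homozygous replicate 2 the median was -0.0105 and 0 of the 19 genes were higher, while 10 were higher without heterozygous replicate 1, 7 without homozygous replicate 1 or homozygous replicate 3, and 2 without heterozygous replicate 2. It was also 2, with 0 lower, without the 3 libraries with high vomeronasal reads. The 2 lower genes became 1 without heterozygous replicate 1 or without homozygous replicate 2 or 3. Jun did not overlap between the groups, at 175.0, 160.8 and 162.4 CPM against 175.5, 181.3 and 176.9 CPM, and was not called (log2 fold change 0.10, adjusted p = 0.483). Ctgf and Cyr61, matricellular members of the list that respond to mechanical tension and serum, had values of -0.33 and -0.22.

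The unfolded protein response list had 4 of 16 genes higher and none lower at an unadjusted p-value under 0.05, with a median of 0.075, while 4.22% of all genes tested were higher and 6.2% lower. Dnajb9, a chaperone of the endoplasmic reticulum, was at 76.1, 89.9 and 82.4 CPM in heterozygous and 99.7, 120 and 99.1 CPM in homozygous mice (log2 fold change 0.36, SE 0.076, adjusted p = 0.109), and the groups did not overlap. The others were Trib3 (0.22), Atf5 (0.15), a transcription factor gene also of mature olfactory neurons, and Manf (0.13). Hspa5, the main chaperone of the endoplasmic reticulum, had a log2 fold change of 0.05 (adjusted p = 0.747). The count of higher genes was 6 without homozygous replicate 1 and 1 without the 3 libraries with high vomeronasal reads, where the median was 0.0039. Without heterozygous replicate 3 or homozygous replicate 2, 1 gene of the list was lower. Heat shock genes had 1 of 13 higher, Hspb1 (0.19, adjusted p = 0.399), and 1 lower, Chordc1 (-0.14, adjusted p = 0.415), with a median of 0.039. The heat shock counts were 2 higher and 3 lower without heterozygous replicate 3, and 2 higher and 0 lower without homozygous replicate 1. No heat shock gene was lower without heterozygous replicate 2 or homozygous replicate 3, and none was higher without heterozygous replicate 1. The counts were again 1 higher and 1 lower without the 3 libraries with high vomeronasal reads. The annotation of the table has no mitochondrially encoded genes, and adult haemoglobin genes are listed at 0 in every library, so neither could serve as a sign of RNA quality or of blood.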

How the data were processed

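Genotypes were taken from the sample titles. Per the authors' methods, reads of strand-specific polyA libraries were mapped to mm10 with HISAT2, and the deposited raw counts give whole reads per gene in 24421 rows and 5 summary rows, which were left out (40.0 to 42.6% of the reads these tables account for). The submitters' processing notes list Trimmomatic 0.36, HISAT2 2.1.0, HTSeq 0.6.1p1 and DESeq2 1.20.0, while the paper names featureCounts. The annotation and strand setting are not given in the sources used here, so overlapping genes may share reads. A second deposited table of size-factor-scaled signal was not used. In 27 rows the symbol had become a date.

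Genes with at least 10 counts over the 9 libraries were fitted with edgeR 4.0.16 (R 4.3.3; TMM, quasi-likelihood F test, genotype as the only term), contrasting homozygous with heterozygous libraries, with Benjamini-Hochberg adjustment over 20213 genes. The script was tested on simulated counts. Summed Taar expression was compared by a two-sided exact permutation test. Exact intervals are binomial, on reads scaled for depth. Coordinates are from RefSeq for GRCm38.p6, the assembly of mm10. Transcript length is that of the longest GENCODE transcript, known for 96.1% of genes tested. The length bins and the long minus short measure used only genes with an average log2 CPM above 1.

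The comparison, the gene lists and the rule for named genes were chosen with earlier results of these data known. Named are all called genes but 1, which is not reported here, the Taar and flanking genes, the 10 smallest p-values not called, 3 OR genes, and list members with an unadjusted p-value under 0.05 or among the 4 most abundant others.

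Alternatives were DESeq2 1.42.0 and its size factors, other filters, the replicate number as a block, only 6 libraries, vomeronasal reads as a covariate, and leaving out libraries.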

Additional observations from a re-analysis of the deposited data

How the results depend on the processing

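DESeq2 size factors (22 genes called), filterByExpr (21) and removal of the length trend (19) left the counts within 1.5 times those reported. Run with its defaults, DESeq2 called 130 genes, 103 other genes lower and 27 higher, and 0 Taar genes. Without its independent filtering it called 126 (95 and 23), 8 of them Taar genes, so the filter accounts for the absent Taar calls. With no filter on low counts 50 genes were called (32 lower and 10 higher outside the family). With only the 6 compared libraries there were 11 (4 and 1), and with vomeronasal reads as a covariate 8 (2 and 0). Without the 3 libraries with high vomeronasal reads 7 were called, 4 Taar genes, 2 other genes lower and 1 higher, and the Taar sum changed by -32.7%. The sum changed by -74.1% over the 6 genes outside Taar7 and Taar8. Leaving out 1 library at a time gave 7 to 195 genes, with 0 to 154 other genes lower, 0 to 33 higher and 6 to 8 Taar genes. Where not stated, the cause was not tested.

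A fit with a replicate block called 41 genes (31 other genes lower), 22 of the 23 among them. The labels do not say that a number marks a litter or batch, so the numbers were not taken as pairs. Deviations of libraries with the same number correlated at -0.003, 0.312 and 0.384 for replicates 1, 2 and 3. Heterozygous replicate 3 with homozygous replicate 2 gave -0.358, and heterozygous replicate 2 with homozygous replicate 3 gave -0.338. Whether libraries with the same number share a batch was not tested. Homozygous replicate 1 was near 0 with each heterozygous library, at -0.003, 0.005 and -0.002. Heterozygous replicate 1 gave 0.12 with homozygous replicate 2 and -0.125 with homozygous replicate 3.

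Of 2537 values of single named genes under the alternatives, 2273 kept their direction and side of the threshold, 156 lost the call, 99 gained it and 9 changed sign. Without the 3 libraries with high vomeronasal reads the log2 fold change was 0.2393 for Dmbt1, 0.0186 for Col1a1, 0.0076 for Cyr61 and -0.0215 for Trib3, and over fits without 1 library that of Dmbt1 went from -1.4041 to 0.1842. That of Moxd1 was 0.0135 with the covariate, and went from -0.0429 to 0.0276 over fits without 1 library. Genes with few reads, such as the Taar8 genes, could show only large differences at this depth.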

Other observations

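Genes of blood and immune cells had no member called by edgeR between homozygous and heterozygous mice. Over all genes tested 6.2% were lower and 4.22% higher at an unadjusted p-value under 0.05. Among 12 macrophage genes 2 were lower at an unadjusted p-value under 0.05, the scavenger receptor genes Mrc1 (log2 fold change -0.28) and Cd163 (-0.67), while the median was 0.085. The count was 1 without heterozygous replicate 1 or without homozygous replicate 1 or 2, and without the 3 libraries with high vomeronasal reads 1 was lower and 5 were higher, with a median of 0.284. The 3 erythroid genes with enough reads had values from -1.07 to -0.70, and Alas2, the enzyme gene that starts haem synthesis in red cell precursors, was at 8.59, 18.3 and 8.46 CPM in heterozygous and 9.55, 5.81 and 6.11 CPM in homozygous mice. Only heterozygous replicate 2 was above all the homozygous libraries for Alas2. It was the 1 erythroid gene with an unadjusted p-value under 0.05, and this count was 3 without heterozygous replicate 3 or homozygous replicate 1 and 0 without heterozygous replicate 2 or homozygous replicate 2 or 3. Neutrophil granule genes had 0 of 12 and lymphocyte genes 0 of 9 past an unadjusted p-value of 0.05, while 1 neutrophil gene was lower and 1 higher without heterozygous replicate 3, 1 was lower without homozygous replicate 1 or 2, and 1 lymphocyte gene was lower without homozygous replicate 3.

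In the lists for other stresses, 0 of 12 interferon response genes and 0 of 10 oxidative stress genes had an unadjusted p-value under 0.05. On this measure 6.2% of all genes tested were lower and 4.22% higher. In the fit without the 3 libraries with high vomeronasal reads 2 interferon response genes were higher, with a median of 0.267. Of the oxidative stress genes, 1 was lower without heterozygous replicate 3 and 1 was higher without homozygous replicate 1. Among 10 hypoxia genes 2 were lower, the glucose transporter gene Slc2a1 (-0.15) and Ndrg1 (-0.14). The count was 4 without heterozygous replicate 3 and 1 without heterozygous replicate 1 or homozygous replicate 1 or 3. Among 12 genes of apoptosis and p53 1 was higher, Bbc3 (0.23), while 0 were higher and 2 lower without heterozygous replicate 3, 2 were higher without homozygous replicate 1, and 2 were lower without homozygous replicate 2. None was called by edgeR. Circadian clock genes had values in both directions. Per3 (-0.21) and the output factor Dbp (-0.20) were lower, and Nfil3, which represses the targets of Dbp, was higher, at 18.7, 15.1 and 14.4 CPM in heterozygous and 19.1, 22.3 and 19.4 CPM in homozygous mice (log2 fold change 0.33), as were Per2 (0.11) and Cry2 (0.10). The median of the 17 clock genes was -0.0047. The 2 lower genes became 1 without heterozygous replicate 2 or homozygous replicate 1, and the 3 higher genes became 1 without heterozygous replicate 3.

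Of 179 vomeronasal receptor genes tested, 161 had a positive log2 fold change and 12 were higher at an unadjusted p-value under 0.05, with a median of 1.17. These 12 were 6.7% of the family, while 4.22% of all genes tested were higher on this measure. In the 3 libraries with the highest sums these 179 genes were at 64.3, 113.2 and 65.4 CPM, and 1 of those libraries was heterozygous. The count of higher genes was 92 without heterozygous replicate 1 (median 4.16) and 58 without homozygous replicate 1 (median 1.71). It was 2 without homozygous replicate 2 (median 0.37) or heterozygous replicate 2 (median 0.77), 3 without homozygous replicate 3 and 4 without heterozygous replicate 3. The median was -0.22 with vomeronasal reads as a covariate and 0 without the 3 libraries. Aqp4, a water channel gene of sustentacular cells, glia and ducts, was at 422.5, 443 and 440 CPM in heterozygous and 376.5, 399 and 385 CPM in homozygous mice (log2 fold change -0.17, SE 0.046, edgeR adjusted p = 0.214) and was not called.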
